A study of Mus musculus with 8 samples.

Results

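Areg, Il10, Gzmb, Klrg1, Il1rl1 and Gata3 are 6 effector genes of the regulatory T cells (Treg cells) that live in tissues, and their expression was described in CD4 T cells of the mouse meninges. They were taken by symbol, with 1 row each in both meningeal gene tables, so they make up 6 of 55487 listed genes. The rule uses no measured value, but the members were chosen with earlier results of these data known. The study profiled meningeal CD4 T cells in 2 replicates, each with a gene expression, a T-cell receptor (TCR) and a hashtag library. Replicate 1 came from Foxp3-GFP mice, a reporter strain for Foxp3, and replicate 2 from B6.WT mice. No treatment was recorded for either, and the labels used here give neither the age nor the number of the animals. All mice were perfused, and live cells were sorted as CD45+ CD3+ CD4+. With 1 replicate of each genotype, genotype, library and animal cannot be told apart, and a difference between the replicates has no test. A separate pair of hippocampal libraries came from Foxp3-DTR- and Foxp3-DTR+ mice, each a pool of 2 mice that had received diphtheria toxin.

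Treg cells restrain other immune cells under the control of the transcription factor Foxp3, and in barrier and other non-lymphoid tissues they also take part in repair. Tissue Treg cells often carry ST2, the receptor for the alarmin IL-33, together with Gata3, the inhibitory receptor KLRG1, and the secreted products amphiregulin and interleukin-10. Amphiregulin, encoded by Areg, is a growth factor that binds the epidermal growth factor receptor. Il10 encodes an anti-inflammatory cytokine, and Gzmb encodes granzyme B, a serine protease of cytotoxic granules. Klrg1 encodes a C-type lectin receptor for cadherins, Il1rl1 encodes ST2, and Gata3 encodes a transcription factor of T-cell development and of type 2 immunity.

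All 6 genes are protein-coding, and GENCODE release vM21 places them on 5 chromosomes of GRCm38. Areg lies at chr5:91139599-91148432 on the plus strand, Il10 at chr1:131019845-131024974 and Il1rl1 at chr1:40429570-40465415, both also on the plus strand. Gzmb lies at chr14:56258838-56262260, Klrg1 at chr6:122270596-122282882 and Gata3 at chr2:9857078-9890034, all on the minus strand. The span of Gata3 overlaps Gm13256 and 4930412O13Rik on the opposite strand and 9230102O04Rik on the same strand. The strand setting of the counting is not given in the sources used here, so reads of these neighbours and of Gata3 may not be separated. The other 5 genes overlap no annotated gene.

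RefSeq promoter windows of GRCm38.p6, 250 bases before and 50 bases after the annotated start, were matched for 4 of the 6 genes. They are shown for a growth factor, a granule protease and a surface receptor whose counts differed with Foxp3 in the results that follow. Capitals mark a cyclic AMP response element (TGACGTCA) in Areg, an AP-1 element (TGANTCA) in Gzmb, and GATA elements (AGATAA with either A or T as its first letter and either A or G as its last, on either strand) in the upstream Il1rl1 promoter. Each is written 5′ to 3′ along the gene's own strand.
Areg, chr5:91139349-91139648, plus strand: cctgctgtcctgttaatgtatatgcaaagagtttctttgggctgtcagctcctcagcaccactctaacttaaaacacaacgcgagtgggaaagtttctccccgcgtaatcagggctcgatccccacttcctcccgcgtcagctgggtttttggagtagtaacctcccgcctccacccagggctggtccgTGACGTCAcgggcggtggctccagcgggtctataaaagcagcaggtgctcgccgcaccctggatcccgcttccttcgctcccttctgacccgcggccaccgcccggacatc
Gzmb, chr14:56262285-56262584, minus strand: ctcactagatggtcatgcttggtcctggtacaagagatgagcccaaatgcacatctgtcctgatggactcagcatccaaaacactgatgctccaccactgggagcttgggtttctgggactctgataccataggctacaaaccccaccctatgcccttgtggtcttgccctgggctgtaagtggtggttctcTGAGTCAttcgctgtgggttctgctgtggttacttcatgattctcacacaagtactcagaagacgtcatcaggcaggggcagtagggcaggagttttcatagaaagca
Il1rl1, chr1:40429320-40429619, plus strand: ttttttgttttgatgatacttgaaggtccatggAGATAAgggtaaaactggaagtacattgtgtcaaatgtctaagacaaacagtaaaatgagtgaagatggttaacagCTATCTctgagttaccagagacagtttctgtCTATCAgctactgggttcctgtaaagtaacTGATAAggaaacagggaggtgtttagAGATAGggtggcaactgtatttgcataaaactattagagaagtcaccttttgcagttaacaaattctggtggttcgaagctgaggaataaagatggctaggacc
The Areg window held 1 cyclic AMP response element that begins 61 bases before the start, and 1.79% of 32851 RefSeq promoter windows of this length hold such a match on either strand. The Gzmb window held 1 AP-1 element 58 bases before the start, against 7.81% of windows. The upstream Il1rl1 window held 5 GATA elements, a downstream Il1rl1 window at chr1:40439379-40439678 held 1, and a Gata3 window at chr2:9878551-9878850 held 1, while 29.8% of windows hold at least 1. These are matches of letters and not measured binding sites.

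Each library pooled several hashtagged samples, and the labels tie replicate 1 to hashtag 7 and replicate 2 to hashtag 10. After filters, 1964 of 13402 barcodes in replicate 1 and 4430 of 33575 in replicate 2 belonged to the labelled hashtag. A small number of barcodes, 7, were kept in both. Clustering without the 6 genes left 1798 CD4 T cells in replicate 1, at a median of 3037.5 unique molecular identifiers (UMIs) per cell, and 4278 in replicate 2, at 1722.5. The T-lineage list, 7 genes with Cd3d, Cd4 and Trac among them, summed to 4394 to 4654 CPM (UMIs of the genes relative to all UMIs of the same cells) in the cells with and without a Foxp3 UMI, with all 7 detected in each. Cells in which the hashtag stood only 2 to 5 times above the next tag differed from the rest in both replicates. Of those with a TCR beta (TRB) chain, 48.7% and 29.6% carried 2 or more such chains, against 4.24% and 6.32% of cells at a margin of 20 or more. A barcode with 2 beta chains can hold 2 cells, so the results that follow are also given for larger margins.

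Every member was found in a larger share of CD4 T cells in replicate 1 than in replicate 2, where cells were shallower. Areg had a UMI in 15.02% of cells in replicate 1 (734 UMIs, 118 CPM) and in 2.17% in replicate 2 (128 UMIs, 14.3 CPM). Il10 had a UMI in 7.73% (393 UMIs, 63.2 CPM) and 0.514% (24 UMIs, 2.68 CPM), and Gzmb in 15.7% (1531 UMIs, 246 CPM) and 3.30% (246 UMIs, 27.5 CPM). The secreted products thus stood several times higher over all margins in the Foxp3-GFP library, also in CPM, a scale relative to depth. A few cells held much of these counts: in replicate 1 the 5 richest cells gave 24.1% of the Areg UMIs, with up to 63 in a cell, and 20.8% of the Gzmb UMIs, with up to 91. The receptors and the transcription factor were closer. Klrg1 was found in 9.45% (65.9 CPM) and 6.78% (55.8 CPM) of cells, Il1rl1 in 3.67% (15.1 CPM) and 1.40% (7.82 CPM), and Gata3 in 26.6% (105 CPM) and 16.3% (92.7 CPM). Foxp3 went the other way, with a UMI in 200 cells of replicate 1 (11.1%) and in 699 of replicate 2 (16.3%).

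Detection of all 6 genes was higher in cells with a Foxp3 UMI than in cells without, in both replicates. Across all genes tested, 75.6% did so. Cells with a Foxp3 UMI were also deeper, with a median of 4403 and 1959 UMIs against 2958 and 1694 in those without. With every cell brought to 1000 UMIs, the 6 members still all had a higher expected share with Foxp3 in both replicates, against 31.7% of all genes. Cells of at least that depth were 193 of 200 and 643 of 699 with a Foxp3 UMI, and 1509 of 1598 and 3198 of 3579 without. The shares at 1000 UMIs given below for single members keep the Foxp3 status of a cell at full depth. With Foxp3 brought to 1000 UMIs too, Areg stood at 13.4% against 6.57% in replicate 1. Gzmb in replicate 2 then stood at 2.11% against 1.98%, and all 6 members remained higher with Foxp3 in both replicates. Within single margin bins, some shares at 1000 UMIs were lower with Foxp3. At a margin of 2 to 5 in replicate 1, Il1rl1 stood at 3.71% against 4.48% and Gata3 at 9.86% against 11.4%. At a margin of 5 to 20, Klrg1 stood at 4.44% against 4.79% in replicate 1. Gzmb there stood at 0.126% against 1.37% in replicate 2.

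Among the secreted products, Areg was found in 63 of 200 cells with Foxp3 in replicate 1 (31.5%, exact 95% binomial interval 25.1 to 38.4, which covers counting error only) and in 13.0% of cells without. In replicate 2 it was found in 47 of 699 (6.72%, interval 4.98 to 8.84) and in 1.29%. At 1000 UMIs per cell the shares were 14.4% and 5.88% in replicate 1, and 3.17% and 0.646% in replicate 2. The growth factor gene was thus the more frequent in Foxp3-positive cells of either genotype, with intervals over all margins that do not meet. At a hashtag margin of 20 or more the intervals of replicate 1 overlap (9.22 to 24.95 and 8.98 to 12.3). Il10 was found in 23.5% and 5.76% of cells in replicate 1 and in 1.43% and 0.335% in replicate 2, where 10 and 12 cells carried it. For Gzmb the shares were 35.0% and 13.3% in replicate 1 but 4.29% and 3.10% in replicate 2, where the intervals overlap (2.91 to 6.07 and 2.56 to 3.72).

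Among the receptors, Klrg1 gave the most even pattern of the 2 replicates. It was found in 24.5% of Foxp3-positive and 7.57% of Foxp3-negative cells in replicate 1, and in 16.3% and 4.92% in replicate 2. At 1000 UMIs per cell these became 10.9% and 3.68%, and 9.66% and 3.14%. Il1rl1, the ST2 gene, was found in 11% and 2.75% of cells in replicate 1, and in 4.58% and 0.782% in replicate 2. Gata3 was the most widely detected member in either kind of cell, at 39.0% and 25.1% in replicate 1 and 25.04% and 14.6% in replicate 2. At equal depth its difference shrank to 11.9% against 9.62% in replicate 1 and remained at 13.0% against 7.87% in replicate 2.

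Read from the other side, Foxp3 was detected in a larger share of the cells that held a member than of those that did not. It was found in 23.3% of Areg-positive cells in replicate 1, against 8.97% of Areg-negative ones, and in 50.5% against 15.6% in replicate 2. For Il1rl1-positive cells the shares were 33.3% and 53.3%, for Il10-positive cells 33.8% and 45.5%, and for Klrg1-positive cells 28.8% and 39.3%. Gata3-positive cells carried Foxp3 in 16.3% and 25.1%, and Gzmb-positive cells in 24.8% and 21.3%. Many member-positive cells therefore had no Foxp3 UMI, which at this depth does not show that they lacked Foxp3 RNA: even in the Treg-like cells described below, 40.3% and 47.3% had one.

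**Figure D1:**
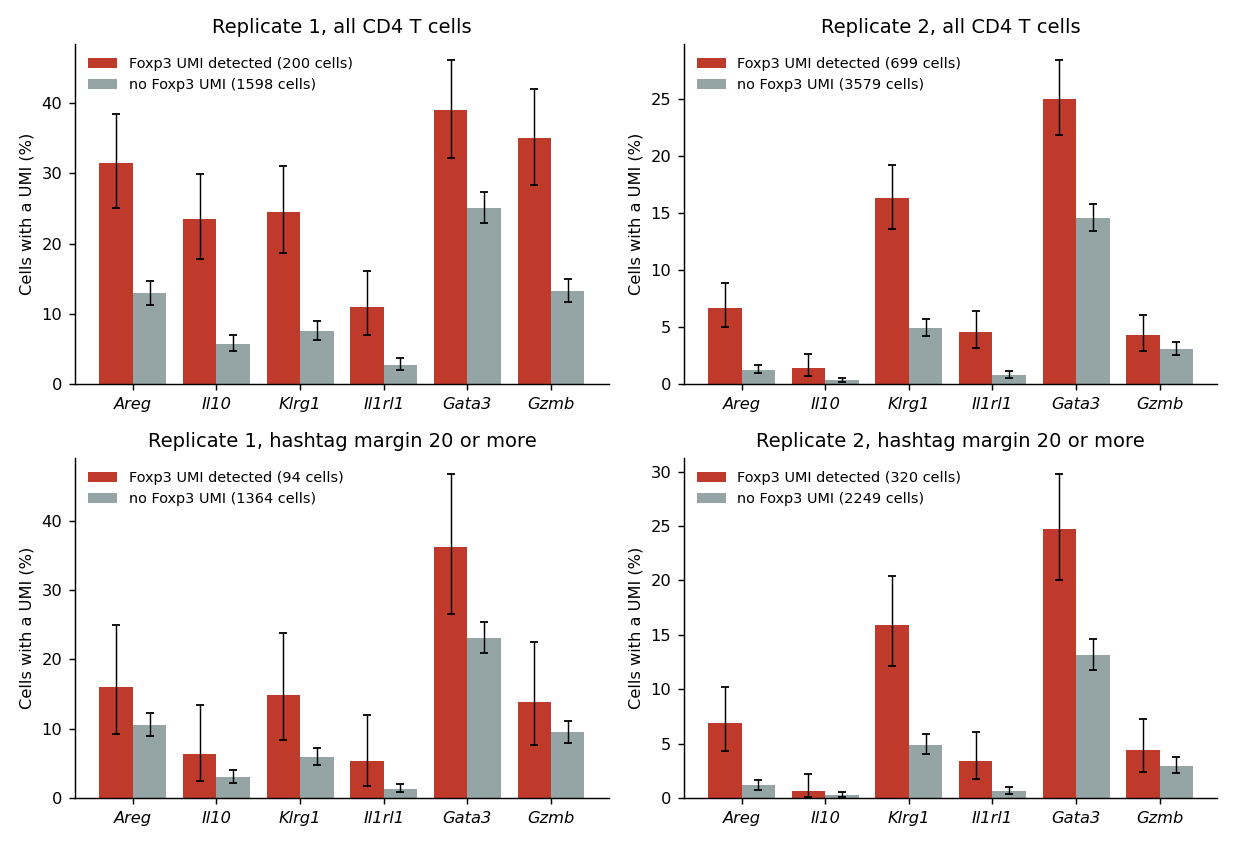
Share of CD4 T cells with at least 1 UMI of each gene (vertical axis, percent) in cells with and without a Foxp3 UMI, for replicate 1 (left) and replicate 2 (right), over all cells (top) and over cells whose hashtag stood at 20 or more times the next tag (bottom). Bars are shares and lines exact 95% binomial intervals for counting error, and each panel has its own vertical scale. All 6 genes are higher with Foxp3 in every panel. In replicate 1 the Foxp3-positive bars of Areg, Il10 and Gzmb stand at 31.5%, 23.5% and 35.0% at the top. At the bottom they stand at 16.0%, 6.38% and 13.8%.

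The test summed raw counts of each replicate over the cells with and the cells without a Foxp3 UMI and fitted the 4 sums with edgeR. Without the replicate as a block, edgeR called 0 of 10790 genes at an adjusted p of 0.05 (0% in all, 374 at an unadjusted p under 0.05), and DESeq2 called 22 (0.204%), Klrg1 among them at an adjusted p of 0.000221. Both sums of a replicate share 1 library and its animals. With no filter on low counts, edgeR without the block called 149 of 21232 genes (0.702%, and 0.438% higher with Foxp3), and all members but Gata3 were among them. With the replicate as a block, edgeR called 614 genes, 5.69% of those tested, and 398 (3.69%) were higher with Foxp3. Of the 6 members 5 rose and Gata3 did not pass. This fit leaves 1 residual degree of freedom and borrows the spread from all genes, so the small p-values rest on that borrowed spread. In sums over cells, fewer cells of a kind and less RNA per cell cannot be told apart.

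Areg stood at 319 and 80.4 CPM with and without Foxp3 in replicate 1, and at 40.4 and 7.81 CPM in replicate 2. Its log2 difference with the block was 2.07 (SE 0.15), or 1.97 and 2.25 in the single replicates, and its edgeR adjusted p was 5.34e-42. The growth factor gene was higher with Foxp3 in either genotype, and the single differences lay further apart at a margin of 20 or more, at 1.71 and 2.75. Il10 stood at 166 and 43.9 CPM in replicate 1 and at 6.17 and 1.81 CPM in replicate 2, a log2 difference of 1.88 (SE 0.21, edgeR adjusted p 1.92e-17). Gzmb stood at 802 and 142 CPM in replicate 1 but at 36.5 and 25.2 CPM in replicate 2, a log2 difference of 1.86 (SE 0.12, edgeR adjusted p 9.26e-48). Its single differences were 2.48 and 0.47, so over all margins most of the granzyme B difference came from the Foxp3-GFP library. At a margin of 20 or more the single differences of Gzmb were alike, at 0.62 and 0.70.

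Klrg1 stood at 165 and 47.3 CPM in replicate 1 and at 134 and 36.5 CPM in replicate 2. The log2 difference was 1.80 (SE 0.13, edgeR adjusted p 1.31e-37), with 1.78 and 1.81 in the single replicates. Il1rl1 stood at 31.6 and 12.0 CPM and at 21.9 and 4.32 CPM, a log2 difference of 1.80 (SE 0.28, edgeR adjusted p 2.36e-08) from 1.34 and 2.16. Gata3 stood at 120 and 102 CPM and at 123 and 85.2 CPM, and its log2 difference of 0.36 (SE 0.13) had an edgeR adjusted p of 0.0732. Over the 6 members the median log2 difference was 1.83, against -0.01 over all genes tested.

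Areg, Klrg1 and Il1rl1 were called at each larger hashtag margin, and Il10 and Gzmb at a margin of 5 or more but not of 20 or more. With the cells at 2 to 5 times the next tag left out, edgeR with the block called 435 of 10332 genes (4.21%), 265 of them higher (2.56%), and all 6 members were among those. The log2 difference was then 1.63 for Il10 (edgeR adjusted p 0.0115), 1.25 for Gzmb (5.29e-05) and 0.59 for Gata3 (0.00539). At a margin of 20 or more, 94 and 320 cells with a Foxp3 UMI and 1364 and 2249 without remained, and edgeR with the block called 364 of 10020 genes (3.63%), 209 of them higher (2.09%). Areg (log2 difference 2.13, edgeR adjusted p 3.91e-09), Klrg1 (1.84, 9.22e-10) and Il1rl1 (2.24, 0.00556) stayed past the threshold, and Gata3 was now called too (0.68, 0.00438). Il10 (1.30, edgeR adjusted p 0.358) and Gzmb (0.67, 0.152) were not. The shares of all 6 members were still higher with Foxp3 in both replicates, as were 36.8% of all genes. For Il10 they were 6 of 94 cells and 41 of 1364 in replicate 1 (6.38% and 3.01%), and 2 of 320 and 5 of 2249 in replicate 2. Gzmb was found in 13.8% and 9.46% of cells in replicate 1 and in 4.38% and 2.98% in replicate 2. Areg was found in 16.0% and 10.6% of cells in replicate 1, with intervals that overlap, and in 6.88% and 1.16% in replicate 2. For Klrg1 the shares were 14.9% and 5.87%, and 15.9% and 4.89%, close to those over all margins in replicate 2. With cells thinned to 1000 UMIs, where 86 and 395 kept a Foxp3 UMI, the edgeR fit with the block called all 6 members among 183 of 8338 genes (2.19%, and 1.25% higher), but the Gata3 difference was -0.31 in replicate 1. The Areg difference in that fit was 1.24 (SE 0.34), from 0.65 and 1.92 in the single replicates.

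Clustering without the 6 genes, named from marker lists, placed 409 cells of replicate 1 (22.7%) and 955 of replicate 2 (22.3%) in Treg-like clusters. Areg, Il10 and Il1rl1 had their highest share of cells in the Treg-like class in both replicates, 3 of 6 members, where 3.61% of all genes tested did. Since the clusters rest on other genes of the same cells, this is a description and not a test.

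Areg was found in 29.1% of Treg-like cells of replicate 1 and in 6.67% to 12.6% of the other classes, naive-like cells included (12.3%). In replicate 2 it was found in 6.18% of Treg-like cells, in 1.26% of naive-like cells and in 0 of 628 Th1-like cells, which allows a share of up to 0.478%. Il10 was found in 23.7% of Treg-like cells of replicate 1 and in at most 4.40% of any other class, and in replicate 2 in 1.26% and at most 1.06%. At 1000 UMIs per cell Il10 was no longer highest in Treg-like cells of replicate 2. It stood at 0.459% there and at 0.501% in Cycling-like cells, where 1 of 94 cells held it. Il1rl1 was found in 10.5% and 4.61% of Treg-like cells, and the next shares were 5.24% in unnamed clusters of replicate 1 and 3.19% in Cycling-like cells of replicate 2. Among the unnamed clusters of replicate 1, 11 of the 80 cells of 1 cluster held Il1rl1 (13.75%, 57.2 CPM), a level in CPM above that of each Treg-like cluster of that library (21.6 to 43.9 CPM), and this cluster was singled out after its values were seen. In replicate 2 the same cluster held it in 2 of 322 cells. Th1-like cells held 1 positive cell in each replicate, of 437 and 628.

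The other members were shared more widely among T-cell states. Klrg1 was found in 24.0% and 15.5% of Treg-like cells, with 16.0% in the 94 Cycling-like cells of replicate 2, and naive-like cells held it in 0.860% and 0.885%. Naive-like cells had a median of 2903 and 1588 UMIs, against 4128 and 1966 in Treg-like cells, and serve here as the background share of a gene that naive T cells should lack. Th1-like cells stood between them, at 7.09% and 8.92%, and NKT-like cells at 13.3% and 3.72%. Gzmb was found in 35.7% of Treg-like cells of replicate 1 and in 6.30% to 15.7% of other classes. In replicate 2, Gzmb was found in 4.92% of Treg-like cells, with NKT-like cells close to it at 4.76% and Cycling-like cells at 10.6%. Gata3 ranged from 19.5% to 38.1% of cells over the classes of replicate 1 and from 11.8% to 28.7% in replicate 2, highest in Treg-like and in Cycling-like cells respectively. At 1000 UMIs per cell, Gata3 and Klrg1 were highest in Treg-like cells of both replicates: Gata3 at 12.9% in each, and Klrg1 at 11.6% and 9.32%.

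**Figure D2:**
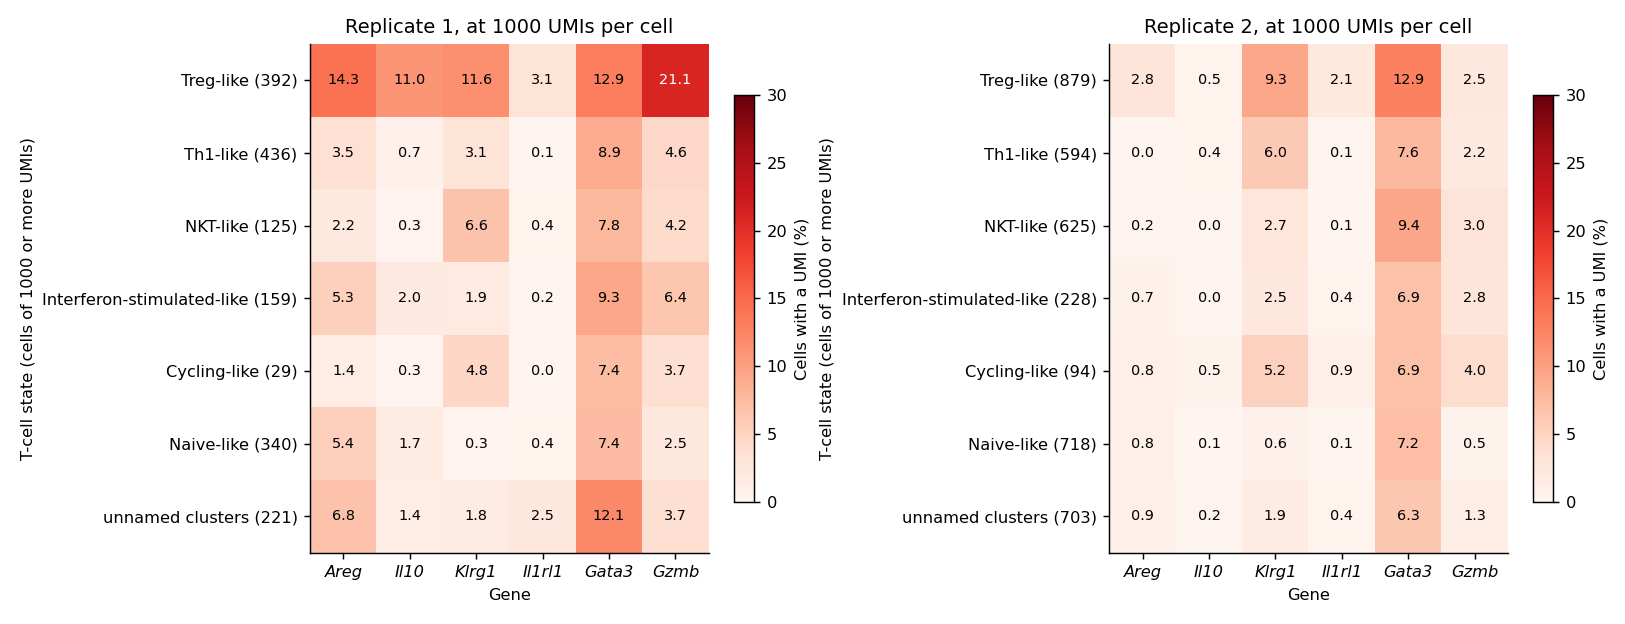
Expected share of cells with a UMI at 1000 UMIs per cell (colour and printed percent) for each gene (horizontal axis) in each T-cell state (vertical axis, with its number of cells of at least that depth), for replicate 1 (left) and replicate 2 (right). The Treg-like row is the darkest for every gene in replicate 1, from 3.10% for Il1rl1 to 21.1% for Gzmb. In replicate 2 Gzmb is higher in Cycling-like (4.02%), NKT-like (3.01%) and interferon-stimulated-like cells (2.84%) than in Treg-like cells (2.46%). Il10 in replicate 2 stands at 0.501% in Cycling-like and 0.459% in Treg-like cells.

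The Treg-like class was made of different clusters in the 2 replicates. In replicate 1, 193 of its 409 cells lay in a cluster led by Gzmb, Il10 and Ctla4, which held 84 of 955 cells in replicate 2. Its replicate 1 cells had a median of 5716 UMIs, and 58.5% held Gzmb and 39.9% Il10. In its replicate 2 cells Gzmb was found in 2.38% and Il10 in 0 of 84 (an upper limit of 3.57%), so the same cluster did not carry the same products. A cluster led by Rln3, Foxp3 and Ikzf2 held 155 and 479 cells, and in these Klrg1 was found in 21.9% and 15.9%. A cluster led by Ikzf2, Lclat1 and Itgae held 61 and 392 cells, where Klrg1 was found in 6.56% and 14.8%.

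At a margin of 20 or more, Gzmb, Il1rl1 and Gata3 no longer had their highest share in the Treg-like cells of replicate 1. Gzmb was found in 11.3% of those 177 cells, in 11.2% of Th1-like and in 16.1% of interferon-stimulated-like cells. Il1rl1 was found in 3.39% of them and in 4.23% of unnamed clusters, and Gata3 in 29.9% and in 33.3% of Cycling-like cells. Areg was found in 15.3%, against 13.5% of naive-like cells. Klrg1 was found in 17.5% of these Treg-like cells and Il10 in 5.65%. In the 408 Treg-like cells of replicate 2 at that margin the shares were 7.11% for Areg, 0.735% for Il10, 4.41% for Il1rl1 and 14.95% for Klrg1. Il10 rested on 3 of these cells there, and its share in Cycling-like cells was 1.64% (1 of 61). At this margin 1 of the 6 members, Areg, had its highest share in Treg-like cells of both replicates, as did 1.18% of all genes tested.

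Areg was also counted outside T cells in replicate 1, where genes of those cells had UMIs in every T-cell class. A cluster of 23 cells led by Muc2 and other genes of intestinal goblet cells was present in replicate 1 and absent from replicate 2, and it held 756 Areg UMIs (1651 CPM). The 9 genes that lead it summed to 166 to 503 CPM in every T-cell class of replicate 1, and all 9 were at 0 in the CD4 T cells of replicate 2. Areg UMIs per UMI of these 9 genes came to 0.954 in Treg-like cells, to 0.0779 to 0.18 in the other T-cell classes and to 0.0392 in the cluster itself. In the myeloid-like and stromal-like cells, left out of the CD4 T cells, the ratio came to 0.821 and 0.287. How much of the Areg in each class came from free RNA was not tested.

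Markers of other cell types that make these products were read in the member-positive cells. The 7 markers of group 2 innate lymphoid cells, which also carry ST2 and make amphiregulin, gave 13 UMIs in the 270 Areg-positive cells of replicate 1 (12.0 CPM) and 6 UMIs in the 93 of replicate 2 (23.8 CPM). Il5, Calca, Kit and Ptgdr2 were at 0 in both. The 6 mast cell and basophil markers were at 0 in all Areg-positive and Il1rl1-positive cells, and gave 12 UMIs of 4 markers in the 282 Gzmb-positive cells of replicate 1 (9.08 CPM) and 0 in the 141 of replicate 2. In Klrg1-positive cells the natural killer markers Ncr1, Klra8 and Klra4 were at 0 in both replicates, and the 6 markers of that list summed to 7.80 and 19.1 CPM. Of the Th2 list, Il5 and Il13 were at 0 in Foxp3-positive cells of both replicates. The list as a whole summed to 103 and 101 CPM with Foxp3 and to 58.8 and 73.6 CPM without, and it includes Ccr4, a chemokine receptor that Treg cells also carry. The 8 myeloid markers summed to 204 and 204 CPM with Foxp3 and to 191 and 182 CPM without. In Il10-positive cells they summed to 253 and 225 CPM, with a UMI in 64.7% and 36.4% of cells, and in Gzmb-positive cells to 230.03 and 198 CPM. The 22 myeloid-like cells of replicate 1, left out of the CD4 T cells, held Gzmb at 337 CPM and Il10 at 142 CPM, and their part in the counts of T cells was not tested.

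By hashtag margin, all 6 members were found in a larger share of cells at 2 to 5 times the next tag than at 20 or more in both replicates, as were 88.6% of all genes tested. At 1000 UMIs per cell 4 of 6 were, against 27.8% of genes. Areg at that depth did not separate the margins in replicate 2, at 1.02% in each, and Klrg1 and Gzmb went the other way there.

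The size of this difference depended on the replicate. In replicate 1 the bins of 2 to 5, 5 to 20 and 20 or more held 241, 99 and 1458 cells, with median depths of 5229, 4369 and 2844.5 UMIs. Gzmb was found in 48.1%, 24.2% and 9.74% of them, and Il10 in 33.6%, 11.1% and 3.22%. Areg stood at 37.3%, 21.2% and 10.9% and Klrg1 at 26.1%, 13.1% and 6.45%. Il1rl1 stood at 14.5%, 8.08% and 1.58%, and Gata3 at 40.2%, 33.3% and 23.9%. At 1000 UMIs per cell Gzmb still stood at 28.7% in the smallest margins and 4.06% in the largest, and Il10 at 15.2% and 1.30%, while Gata3 stood at 10.9% and 9.77%. The granzyme B and interleukin-10 transcripts of replicate 1 thus lay mostly in cells whose tag was least distinct. The bin of 2 to 5 also held 469 of the 734 Areg UMIs of replicate 1, 227 of the 410 Klrg1 UMIs and 55 of the 94 Il1rl1 UMIs. Gata3 was spread across margins.

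In replicate 2 the bins held 950, 759 and 2569 cells, with median depths of 2483.5, 1727 and 1575 UMIs. Areg was found in 2.84%, 2.37% and 1.87%, Il10 in 0.947%, 0.791% and 0.272%, and Klrg1 in 8.42%, 6.46% and 6.27%. For Gzmb the shares were 4.63%, 2.11% and 3.15%, lowest in the middle bin. Il1rl1 stood at 2.21%, 1.84% and 0.973% and Gata3 at 22.0%, 14.9% and 14.6%. For Areg, Il10, Klrg1, Il1rl1 and Gzmb the ends of the range were closer together than in replicate 1.

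**Figure D3:**
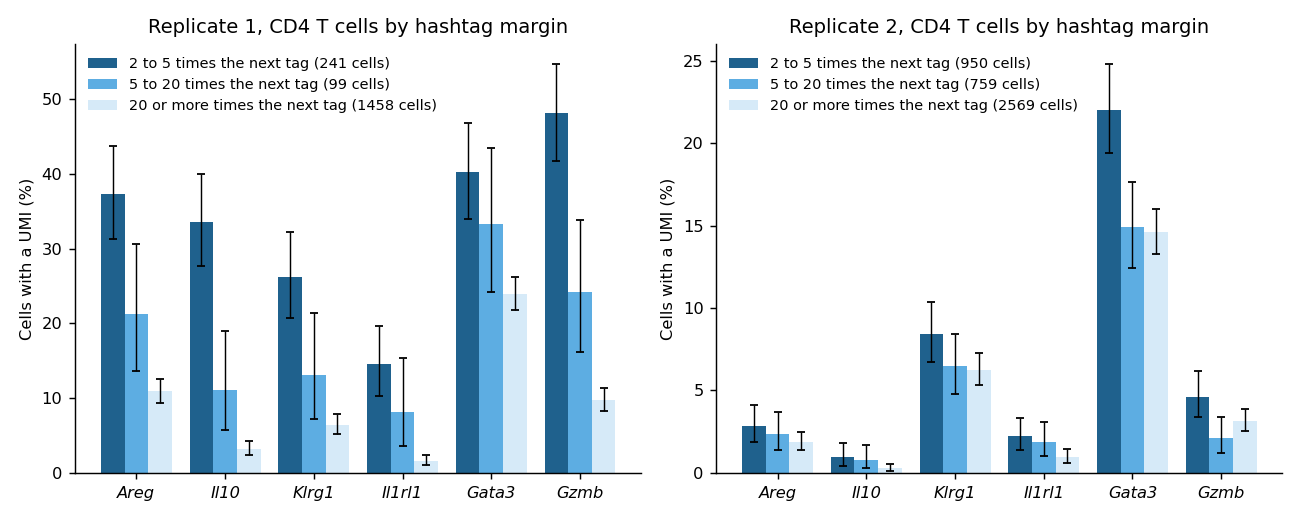
Share of CD4 T cells with at least 1 UMI of each gene (vertical axis, percent, with a separate scale for each panel) by the number of times the own hashtag exceeded the next, for replicate 1 (left) and replicate 2 (right). Bars are shares and lines exact 95% binomial intervals for counting error. In replicate 1 every gene is lower at each larger margin, Gzmb at 48.1% and then 9.74% at the ends. In replicate 2 the intervals of the smallest and largest margins overlap for Areg, Il10, Klrg1, Il1rl1 and Gzmb.

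Cells of small margin also held other T-cell states and more than 1 receptor. In replicate 1, 77.6% of cells at 2 to 5 were Treg-like, against 12.1% at 20 or more, and in replicate 2 40.2% were, against 15.9%. The cluster led by Gzmb and Il10 took up 155 of the 241 small-margin cells of replicate 1 (64.3%) and 3 of the 1458 at 20 or more. In replicate 2 it took up 1.37% and 2.06%. State, depth, receptor number and margin moved together, and their separate parts in the members' values were not tested.

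An edgeR fit of the sums at 2 to 5 against those at 20 or more called 0 of 10806 genes without the block (0%, 210 at an unadjusted p under 0.05) and 2 with it (0.0185%, 1 of them higher, 0.00925%), and DESeq2 called 4 (0.037%). No member was called in any of these. The log2 differences in replicates 1 and 2 were 4.31 and 0.06 for Gzmb, 4.22 and 0.74 for Il10, and 2.85 and -0.50 for Areg. They were 2.28 and 0.09 for Klrg1, 2.59 and 0.66 for Il1rl1, and 0.19 and 0.07 for Gata3. With cells thinned to 1000 UMIs and the replicate as a block, edgeR called 5 members, Gata3 being the exception, among 78 of 8427 genes (0.926%, and 0.748% higher). Of these 5, Areg (2.69 and -0.30), Klrg1 (2.31 and -0.09) and Gzmb (3.88 and -0.06) had log2 differences of opposite sign in replicates 1 and 2 of that fit. With no filter on low counts and no block it called the same 5 among 116 of 20762 genes (0.559%, and 0.467% higher).

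Of the 15 pairs of members, 14 were found together in more cells of both replicates than the product of their shares gives, as were 59.9% of all pairs of genes tested. The exception was Il10 with Gzmb, found together in 71 cells of replicate 1 where the product gives 21.8, and in 0 cells of replicate 2 where it gives 0.725. At equal depth of 1000 UMIs, 12 pairs stood above the product in both, against 21% of all pairs. At a margin of 20 or more 6 of 15 did, against 46.1% of all pairs, so that count was near the background. They were Gata3 with Areg, Il10, Klrg1 and Il1rl1, and Klrg1 with Il1rl1 and Gzmb.

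Pairs among the surface receptors and Gata3 stood above the product over all cells. At the large margin they were among the 6 of 15 pairs that did so in both replicates, a count near the background. Klrg1 and Il1rl1 met in 27 cells of replicate 1 (product 6.24) and 18 of replicate 2 (4.07), and at the large margin in 3 (1.48) and 6 (1.57). Il1rl1 and Gata3 met in 43 cells (17.6) and 19 (9.78), and at the large margin in 17 (5.51) and 9 (3.65). Klrg1 and Gata3 met in 77 (45.3) and 94 (47.2), and at the large margin in 41 (22.5) and 40 (23.5). Areg and Il1rl1 met in 20 cells (9.91) and 10 (1.30) over all margins, but at the large margin in 0 (2.51) and 5 (0.467).

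Cells with 3 or more members detected were rare at the large margin in both replicates, and in replicate 2 over all margins too. In replicate 1, 50 of 200 Foxp3-positive cells held 3 or more (25%), against 74 of 1598 without Foxp3 (4.63%). At a margin of 20 or more 4 of 94 did (4.26%), against 20 of 1364 (1.47%). In replicate 2, 25 of 699 did (3.58%), against 12 of 3579 (0.335%). At the large margin 12 of 320 did (3.75%), against 4 of 2249 (0.178%). No member was detected in 46 of the 200 Foxp3-positive cells of replicate 1 (23.0%) and in 416 of the 699 of replicate 2 (59.5%). The most members found in a single cell was 6 in replicate 1 and 4 in replicate 2.

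The receptor libraries gave a separate readout. Only CD4 T cells with exactly 1 TRB chain were used. Clonotypes shared by 2 or more cells took up a larger share of Klrg1-positive than of Klrg1-negative cells in both replicates. Klrg1 was 1 of 6 members with such a difference, where 20.3% of 10217 genes had it, so that count was near the background. For Klrg1 the shares were 30 of 107 cells (28.0%, interval 19.8 to 37.5) against 238 of 1271 (18.7%, 16.6 to 21.0) in replicate 1. These intervals overlap. In replicate 2 they were 53 of 155 (34.2%, 26.8 to 42.2) against 356 of 2417 (14.7%, 13.3 to 16.2).

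KLRG1 is known as a mark of repeatedly stimulated T cells, and the same difference stood in cells without Foxp3. Among those, 34.1% of Klrg1-positive cells were in shared clonotypes against 19.0% in replicate 1, and 39.8% against 13.9% in replicate 2. Among Foxp3-positive cells, with sharing counted within them, 0 of 22 Klrg1-positive cells were in replicate 1, which allows up to 13.6%, against 2.22% of Klrg1-negative ones. In replicate 2 the shares were 6 of 57 (10.5%) and 3.65%. At a margin of 20 or more the shares over all CD4 T cells were 35.4% against 18.7%, and 42.7% against 12.4%, so the difference stood without the small-margin cells. Areg-positive cells were the less shared in both replicates, at 14.3% against 20.2% and 13.3% against 15.9%, with intervals that overlap. Gzmb-positive cells stood at 13.3% against 20.2% and at 16.9% against 15.9%, and Gata3-positive cells at 19.0% against 19.6% and 14.1% against 16.2%. For Il10 and Il1rl1 there were 13 to 72 positive cells with 1 chain, and their directions differed between the replicates. Klrg1 was found in 0.860% and 0.885% of naive-like cells and in 7.09% and 8.92% of Th1-like cells. The part of T-cell state in its clonotype difference was not tested. Cells of a clone share their origin and are not replicates, so no test was run.

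**Figure D4:**
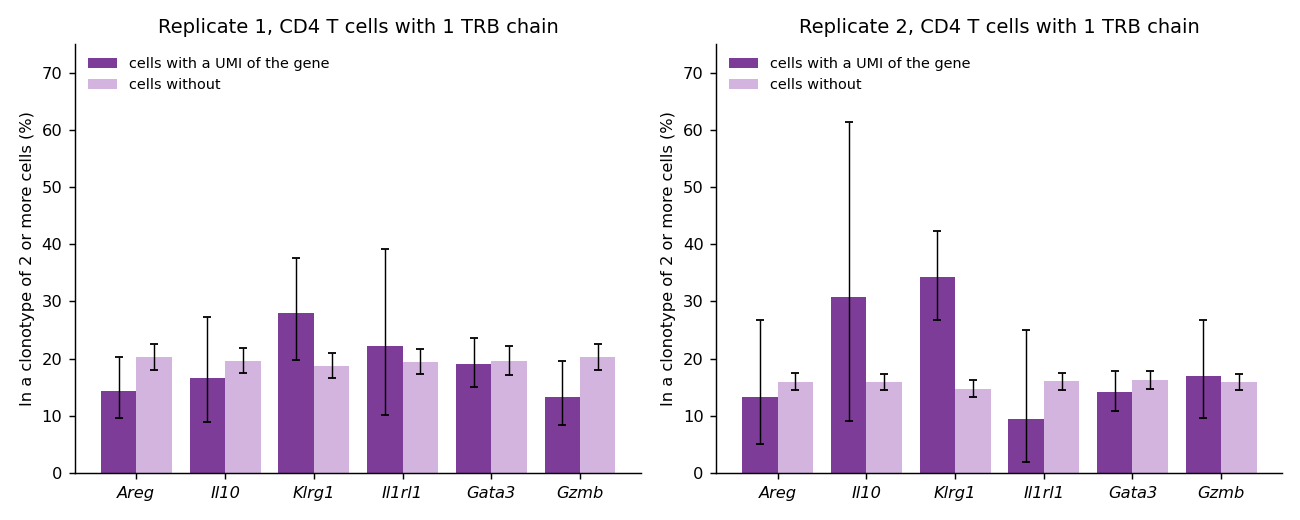
Share of CD4 T cells with exactly 1 TRB chain that lie in a clonotype of 2 or more cells (vertical axis, percent), for cells with and without a UMI of each gene, in replicate 1 (left) and replicate 2 (right). Bars are shares and lines exact 95% binomial intervals for counting error. Klrg1 has the higher bar for positive cells in both panels, at 28.0% against 18.7% and 34.2% against 14.7%.

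Other genes of the pathways around the members were read from the same edgeR fit with the replicate as a block, in which 5.69% of genes were called. Without the block no listed gene was called. Of 13 genes of the ST2 and type 2 axis, 9 could be tested, 4 rose with Foxp3 and 1 fell, with a median log2 difference of 0.03. Il2ra, the high-affinity interleukin-2 receptor chain that marks Treg cells, rose by 1.61 (SE 0.13) from 44.7 to 158 CPM in replicate 1 and from 68.9 to 197 CPM in replicate 2. The chemokine receptor genes Ccr4 (1.27, SE 0.16) and Ccr8 (1.21, SE 0.15) rose too. Il4, the type 2 cytokine, fell by 1.17 (SE 0.33), from 19.3 to 6.11 CPM and from 16.2 to 8.98 CPM. Il2ra, Ccr4 and Ccr8, the genes named here among the 4 that rose, encode receptors. The type 2 cytokines Il5, Il13 and Il9 were too low to test.

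On the interleukin-10 axis all 13 genes could be tested, and 8 rose and none fell, with a median log2 difference of 0.60. Ebi3, a subunit of interleukin-35, rose by 1.48 (SE 0.21), and Irf4, a transcription factor of activated T cells, by 1.10 (SE 0.23). Lag3, an inhibitory receptor, rose by 1.19 (SE 0.16) and Nfil3, a transcription factor, by 1.12 (SE 0.19). Lag3 went from 63.9 to 193 CPM in replicate 1 but from 18.7 to 26.4 CPM in replicate 2. At a margin of 20 or more 3 of the 13 were called, all 3 among these 8. Ebi3 was, while the edgeR adjusted p was 0.303 for Lag3, 0.245 for Nfil3 and 0.199 for Irf4.

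More granule genes fell than rose beside Gzmb. Of 9 tested, 1 rose and 4 fell, with a median log2 difference of -0.45, and at a margin of 20 or more 1 rose and 4 fell of 8. Gzma, another granzyme, fell by 2.68 (SE 0.40), from 18.9 to 8.15 CPM in replicate 1 and from 22.3 to 0.562 CPM in replicate 2. Gzmk fell by 1.38 (SE 0.17), and the cytotoxic granule genes Nkg7 and Ctsw fell by 1.04 (SE 0.09) and 0.81 (SE 0.10). Nkg7 went from 825 to 425 CPM and from 836 to 403 CPM, alike in the 2 replicates. Gzmk, Nkg7 and Ctsw are also among the leading genes of the Th1-like cluster, whose cells seldom held a Foxp3 UMI (0.915% and 3.98%).

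Of 25 transcription factors and receptors known from tissue Treg cells, 24 could be tested, 18 rose and 2 fell, with a median log2 difference of 0.77. Itgae, the integrin that binds E-cadherin, rose by 2.31 (SE 0.22), and Tnfrsf9, a costimulatory receptor, by 2.07 (SE 0.11). Tnfrsf9 went from 90.3 to 500.4 CPM in replicate 1 and from 64.4 to 213 CPM in replicate 2. Il1r2, a decoy receptor for interleukin-1, rose by 1.97 (SE 0.27), and Dgat2, an enzyme of triglyceride synthesis, by 2.06 (SE 0.56). At a margin of 20 or more, 12 of 23 rose and 2 fell.

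Of 6 genes listed beside Klrg1, cadherins and other C-type lectin genes, 4 could be tested, 1 rose and 2 fell. The cadherin gene Cdh1 was tested and not called. The natural killer receptor genes Klrc1 and Klrk1 fell by 1.22 (SE 0.27) and 1.21 (SE 0.19), unlike Klrg1 itself. Cd69, an activation and residency marker, rose by 0.35 (SE 0.10) but was not called at a margin of 20 or more (edgeR adjusted p 0.0803). Of 8 EGF-family and shedding genes around amphiregulin, 3 could be tested and none passed (median log2 difference 0.11). Ereg, Epgn, Btc, Tgfa and Egfr were too low.

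For each member the most similar patterns were sought among 5454 genes over 10 sums, 5 T-cell classes in each of 2 replicates, which share their libraries. The pattern of Areg was nearest to Foxp3 (Pearson r 0.98), followed by Ctla4 and Nfkb1. Il1rl1 was nearest to Cd83, Ikzf2 and Foxp3, and Il10 to Ubald2, Tnfaip3 and Rrad. Gzmb was nearest to Mxd1, Nfkbid and Stx11. The nearest genes of Klrg1 were Atp5d, Cers5 and Gm6637, and those of Gata3 were Elf4, Gnb1 and Med15. All 18 of these r values lay between 0.94 and 0.98, with no p given. Foxp3, Ctla4 and Ikzf2 are also among the markers from which the Treg-like class was named. A likeness to them is therefore built in for any gene that is high in that class.

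In the hippocampal libraries the members were at or near 0. Areg had 1 UMI in 8220 barcodes from Foxp3-DTR- mice and 2 UMIs in 6548 barcodes from Foxp3-DTR+ mice, and Gata3 had 2 and 0. Il10, Klrg1, Il1rl1, Gzmb and Foxp3 had none in either, which allows up to 0.0561 and 0.0838 CPM. These cells were sorted as CD45- and Thy1-, so a lack of T-cell transcripts says nothing about Treg cells in that tissue.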

How the data were processed

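Per the file headers, the authors' deposited matrices for 2 meningeal and 2 hippocampal libraries give unnormalised UMI counts from Cell Ranger (4.0.0 in replicate 1 and 6.0.0 in replicate 2 in the headers, 6.1.0 in the submitters' processing notes, which also name Seurat and build mm10). For the T cells the labels' protocols name a 3' kit, and the series design names a 5' kit. Deposited hashtag tables hold counts per tag, and deposited TCR tables list contigs, of which productive ones were used. No columns of other samples were used.

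A barcode belonged to a replicate when the tag in its label reached 10 counts and exceeded every other tag 2 times or more. For replicate 1 the tag's name decided, since the sequence in its label is not in its table. Cells needed at least 500 genes and under 10% mitochondrial UMIs. Totals were 60.9 and 68.8 M UMIs. Cells were clustered with scanpy 1.11.5 (2000 variable genes, 30 components, 15 neighbours, Leiden resolution 1) without the 6 members, and clusters were named from marker lists. Clusters of other cell types (166 and 152 cells) were left out, and doublets were examined by hashtag margin and TRB chains, with no caller. Clonotypes were identical TRB chains.

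Raw counts were summed per replicate and tested with edgeR 4.0.16 (quasi-likelihood, TMM, filterByExpr, Benjamini-Hochberg, R 4.3.3), leaving Foxp3 out of its own comparison. DESeq2 1.42.0, the replicate block, no filter on low counts, other depths, margins and clusterings were alternatives. The replicate number pairs the sums, which share a library and animals: across genes, which are not independent replicates, deviations of the same replicate correlated with r = 0.73 in the Foxp3 comparison and 0.68 in the margin comparison. On simulated data for the Foxp3 comparison (10544 genes, 100 changed at each fold), the block recovered 48% of 2-fold and 94% of 4-fold changes with 13 false calls, and the fit without it recovered 0. For the margin comparison (10581 genes) these were 60%, 95%, 5 and 0. Shares have exact (Clopper-Pearson) 95% intervals, and a share of 0 a limit of 3 counts. Both cover counting error only. Shares at 1000 UMIs are hypergeometric expectations. Named genes were the 6 members, Foxp3, and up to 4 genes of each list with the largest change past an adjusted p of 0.05 with the block in the same direction in both replicates, plus the 3 most similar patterns per member (log2(CPM + 10), centred within a replicate). Members, lists and tests were chosen with earlier results of these data known. The leading genes of the cluster led by Muc2, and the alternatives that join a setting with the block, were chosen after seeing the data.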

Additional observations from a re-analysis of the deposited data

Results flagged for a closer look

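Areg differed in direction between the replicates by hashtag margin. Its log2 difference between cells at 2 to 5 times the next tag and cells at 20 or more was 2.85 in replicate 1 and -0.50 in replicate 2. It was singled out because the sums moved opposite ways in the Foxp3-GFP and the B6.WT library, and the difference between the replicates was not tested.

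Areg also stood at 1651 CPM in the cells of the cluster led by Muc2 in replicate 1. These cells enter no comparison of CD4 T cells and hold more of the growth factor transcript relative to all UMIs than the Treg-like cells of that library (288 CPM).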

How the results depend on the processing

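The Foxp3 comparison called 0 genes in edgeR without the replicate block. It called 614 with the block, 22 in DESeq2 and 149 with no filter on low counts. With the block joined to another setting the calls were 305 at 1000 or more genes per cell, 435 at a margin of 5 or more, 364 at 20 or more, 458 with at least 2 Foxp3 UMIs, 420 with exactly 1 TRB chain and 183 at 1000 UMIs per cell. The margin comparison called 0, then 2 with the block, 4 in DESeq2, 116 with no filter, 2 with the block at 1000 or more genes, 2 with the block against margins of 5 or more and 78 with the block at 1000 UMIs. The fitted difference of all 6 members with Foxp3 stayed above 0 in every alternative listed here, each also without the block, and without either replicate. In single replicates the Gata3 difference with Foxp3 was -0.31 at 1000 UMIs per cell and -0.16 with at least 2 Foxp3 UMIs, both in replicate 1. Fitted differences reversed in the margin comparison: Areg at -0.52 to 2.78 with 1 replicate left out (-0.52 without replicate 1), and Gata3 at -0.00698 at 1000 UMIs per cell, where Areg, Klrg1 and Gzmb were below 0 in replicate 2 (-0.30, -0.09 and -0.06). Pairs above the product fell from 14 to 6 at a margin of 20 or more and to 6 with at least 2 UMIs of the member. Members highest in the Treg-like class numbered 3, 1 at a margin of 20 or more, and 3 to 6 without a replicate. Members more often in shared clonotypes numbered 1, 2 at a margin of 5 or more, 3 at 20 or more, and 2 to 3 without a replicate. The cause of these changes was not tested. With 1 replicate left out there is no test. Depth limits Il10 most in replicate 2, where it rests on 24 UMIs in 22 cells.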
